A study of Mus musculus with 17 samples.

Results

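The genes described here are those that make, sense and break down prostaglandin E2 and prostacyclin: the cyclooxygenases Ptgs1 and Ptgs2, the prostaglandin E synthases Ptges and Ptges2, the prostacyclin synthase Ptgis, the 4 prostaglandin E2 receptors Ptger1 to Ptger4, and Hpgd, which inactivates prostaglandins. They were chosen by name, 10 of the 55450 genes of the bulk table, and their levels were followed in 14 bulk RNA-seq libraries and in 3 single-cell libraries. Levels in the bulk libraries are given as TPM, the abundance of a transcript scaled for its length and for the size of the library, from which read numbers cannot be recovered. A gene was tested where at least 2 libraries held at least 1 TPM, which left 15348 genes and 6 of the 10: Ptgs1, Ptgs2, Ptges, Ptges2, Ptgis and Ptger4. Ptgis passed only through lung-derived CD44low cells, so a difference there was set by the filter and its values are given as a description, with no p.

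All cells came from female FVB/NJ mice carrying MMTV-PyMT, a transgene in which the mouse mammary tumor virus promoter drives the polyoma middle T antigen in mammary epithelium, and the mice were 10 to 12 weeks old. The bulk groups were primary tumor cells of the mammary fat pad (MFP), which carry no CD44 status in the labels, and CD44low and CD44high cells from the lymph node (LN), the bone marrow (BM) and the lung, with 2 libraries for each of the 7 groups. Every group had grown in culture for about a month with differential trypsin treatment before a sort on EpCAM and CD44. The paper describes the MFP line as sorted too. The values are thus those of cultured, enriched cells and not of cells taken straight from an organ. The libraries of a group were clonal isolates of different mice, so a library stands for 1 clone and the spread is that between clones. The single-cell libraries, made on the ddSeq platform, held lung-derived CD44low (lungL), lung-derived CD44high (lungH) and LN-derived CD44high cells (lymphH), with 1 library each and so no replicate check. Values of a pair of libraries are given with replicate 1 first.

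Prostaglandins are lipid signals made from arachidonic acid, which phospholipases release from membranes. Cyclooxygenase 1 (Ptgs1) is usually present at a steady level, while cyclooxygenase 2 (Ptgs2) is induced by growth factors, cytokines and injury. Both make prostaglandin H2, which terminal synthases turn into prostaglandin E2, prostacyclin and other prostanoids. Prostaglandin E2 signals through receptors on the cell surface, of which Ptger2 and Ptger4 raise cyclic AMP, and in mammary tumors Ptgs2 is known for its part in growth and spread.

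Of the 10 genes, 8 had a promoter window of 250 bases before and 50 bases after the start in RefSeq (GRCm38.p6). The stretches before the start of Ptgs1 and Ptgs2 are printed because these cyclooxygenases had unlike levels across the groups, and that of Ptges because its level was highest where that of Ptgs1 was. They lie at chr2:36230176-36230425 on the plus strand (Ptgs1), chr1:150099781-150100030 on the plus strand (Ptgs2) and chr2:30903298-30903547 on the minus strand (Ptges), whose RefSeq start lies within the longer gene that GENCODE gives. A site just inside Ptgs2 lies at chr1:150100035-150100064. Capitals mark matches, on either strand, to 5 motifs: TATAA (TATA box), GGGCGG (GC box), TTNNGNAA (C/EBP motif), TGACG (core of a cAMP response element) and CACGTG (E-box).
Ptgs1: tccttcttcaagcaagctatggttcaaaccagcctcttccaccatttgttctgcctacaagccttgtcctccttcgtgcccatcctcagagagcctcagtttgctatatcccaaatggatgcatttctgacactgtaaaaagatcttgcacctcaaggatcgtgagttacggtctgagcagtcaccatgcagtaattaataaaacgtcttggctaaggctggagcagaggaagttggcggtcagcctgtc
Ptgs2: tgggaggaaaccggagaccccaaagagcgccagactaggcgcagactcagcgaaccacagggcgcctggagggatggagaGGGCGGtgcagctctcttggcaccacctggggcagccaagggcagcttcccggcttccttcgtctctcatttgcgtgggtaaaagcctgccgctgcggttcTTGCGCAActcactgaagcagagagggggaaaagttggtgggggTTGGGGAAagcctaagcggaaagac
Ptgs2 site: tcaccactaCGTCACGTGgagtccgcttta
Ptges: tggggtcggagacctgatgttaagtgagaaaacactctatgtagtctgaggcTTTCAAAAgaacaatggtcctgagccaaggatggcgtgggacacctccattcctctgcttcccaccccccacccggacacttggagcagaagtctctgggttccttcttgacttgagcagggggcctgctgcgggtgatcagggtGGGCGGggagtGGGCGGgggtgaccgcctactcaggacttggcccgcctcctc

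In the Ptgs2 window, matches to the C/EBP motif began 69 and 25 bases before the start. A match to the cAMP response element core began at base 14 of the gene and overlapped an E-box that began at base 17. The Ptges window held 2 GC boxes, 53 and 42 bases before the start, and 1 C/EBP motif. No letters of the 5 motifs were found in the Ptgs1 window. Among all 32851 windows of that length, 24.9% held the TATA box, 35.7% the GC box, 40.7% the C/EBP motif, 20.8% the cAMP response element core and 7.15% the E-box. A match describes the sequence and is not a measured site.

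The sorting markers and the cell type markers went against some labels. Epcam, the surface protein used in the sort, was at 315 to 941 TPM in the 10 MFP, LN and BM libraries, at 0.23 and 0.86 TPM in lung-derived CD44high cells and listed at 0 in both libraries of lung-derived CD44low cells. The summed level of 10 epithelial markers was 2256 to 8328 TPM in the MFP, LN and BM libraries, 15.99 and 87.65 TPM in lung-derived CD44high cells and 2.43 and 2.61 TPM in lung-derived CD44low cells, where Epcam, Cdh1, Krt8, Krt19, Cldn4 and Esrp1 were listed at 0. In those CD44low libraries 9 of 10 fibroblast markers reached 1 TPM, with a summed level of 4789 and 5230 TPM against 0.50 to 216 TPM in the other 12 libraries. The summed level of 8 cycling markers was 4.34 to 68.4 TPM in the 4 lung libraries and 497 to 5120 TPM in the other 10. Cd44 mRNA was at 147 and 82.7 TPM in LN-derived CD44low and 49.0 and 52.3 TPM in CD44high cells, the reverse of the sort. In the lung it was at 12.2 and 21.6 TPM in CD44low and 21.95 and 12.1 TPM in CD44high cells. BM-derived CD44low cells had 43.8 and 74.9 TPM and CD44high cells 50.5 and 49 TPM. In the lung and the BM, Cd44 mRNA thus overlapped between the sorted fractions. In bulk samples, fewer cells of a type and less RNA per cell cannot be told apart.

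The inducible cyclooxygenase Ptgs2 (ENSMUSG00000032487.8, chr1:150100031-150108227) was the member with the highest level in 11 of the 14 libraries. MFP libraries had 267 and 198 TPM. LN-derived CD44low cells had 402 and 238 TPM, and LN-derived CD44high cells 60.6 and 92.3 TPM. It was 36.4 and 31.5 TPM in BM-derived CD44low and 27.4 and 30 TPM in BM-derived CD44high cells. Lung-derived CD44low cells had 78.6 and 117 TPM and lung-derived CD44high cells 26.2 and 22.9 TPM. By mean level the order ran from LN-derived CD44low cells through MFP, lung-derived CD44low, LN-derived CD44high, BM-derived CD44low and BM-derived CD44high to lung-derived CD44high cells. The LN-derived CD44low libraries overlapped the MFP libraries, and the lung-derived CD44low libraries overlapped those of LN-derived CD44high cells, while the other neighbours in this order did not overlap.

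On the log2(TPM + 1) scale, which understates changes of low genes, Ptgs2 differed from MFP in 5 of the 6 organ-derived groups. A gene was called where limma, fitted across all 15348 genes, gave a Benjamini-Hochberg adjusted p under 0.05. Ptgs2 fell by 2.73 in BM-derived CD44low cells (SE 0.31, adjusted p = 0.000221), by 2.96 in BM-derived CD44high cells (SE 0.31, adjusted p = 0.000119) and by 3.18 in lung-derived CD44high cells (SE 0.31, adjusted p = 4.26e-05). The falls were smaller in LN-derived CD44high cells (log2 fold change -1.61, adjusted p = 0.00506) and lung-derived CD44low cells (-1.25, adjusted p = 0.00875). The latter was not called without MFP replicate 1 (-1.04, adjusted p = 0.0712) or without lung CD44low replicate 1 (-0.96, adjusted p = 0.0822). In LN-derived CD44low cells the difference was 0.43 with a 95% interval from -0.27 to 1.12. BM libraries were lower than LN libraries by 2.25 (SE 0.22, adjusted p = 0.00101), a comparison in which 0.313% of all genes tested were lower and Ptgs2 was the only member called.

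**Figure D1:**
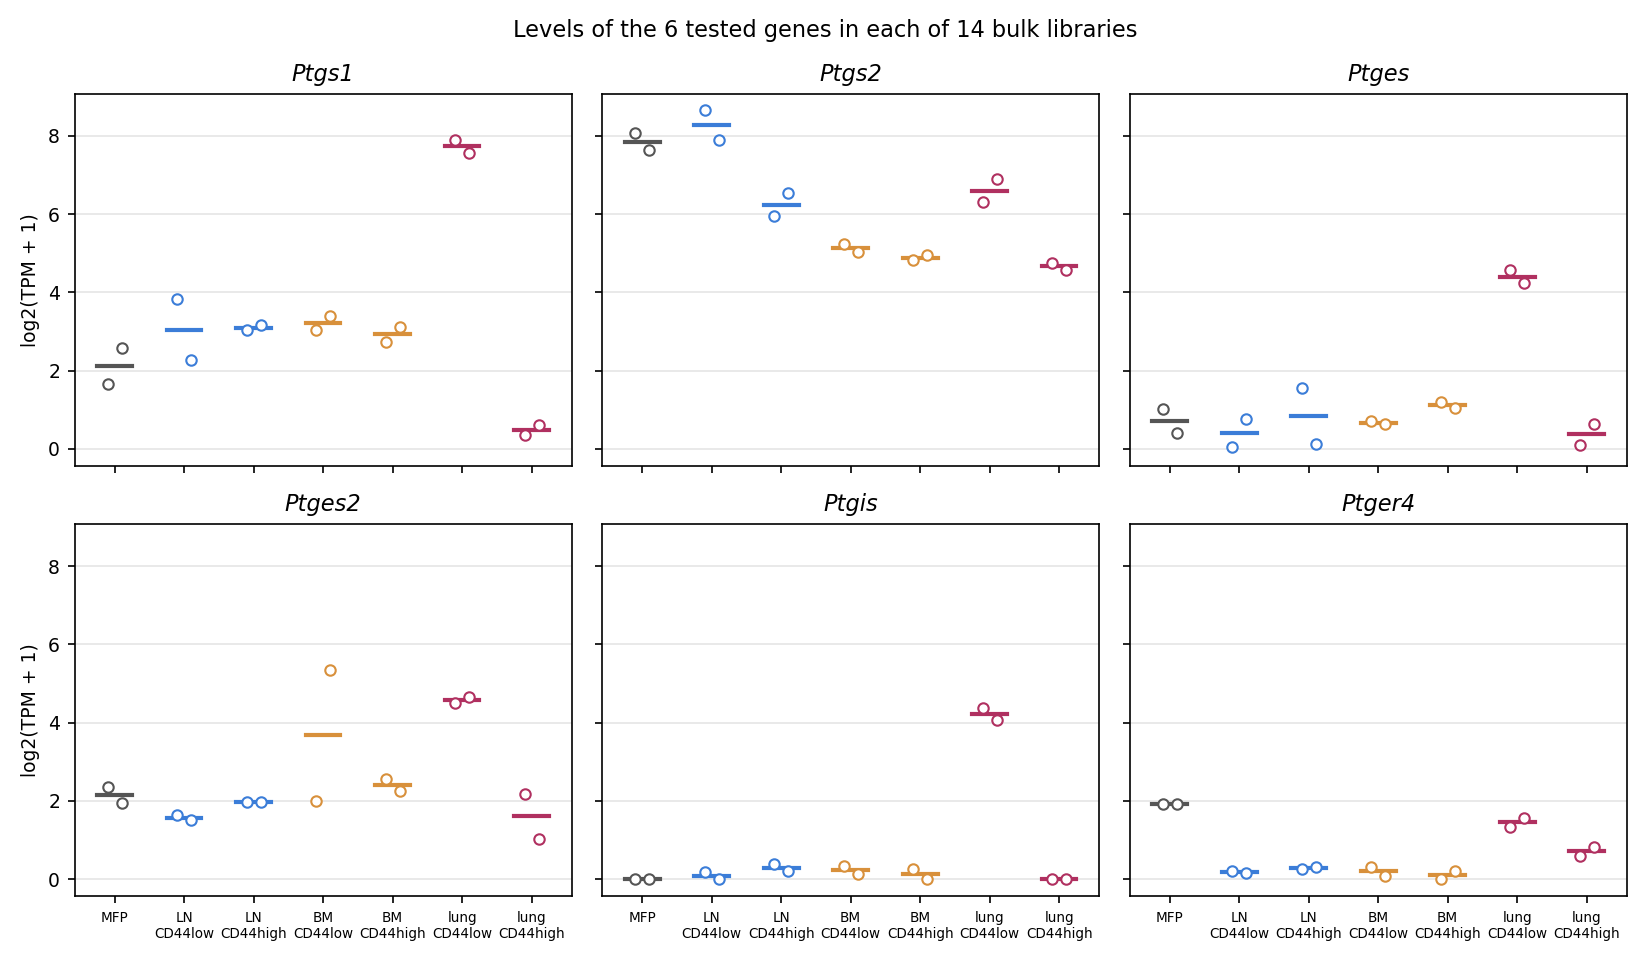
Levels of the 6 tested genes on the log2(TPM + 1) scale (vertical axis) in the 7 groups (horizontal axis), with an open point for each library and a line for the mean of 2. Lung-derived CD44low cells stand above all other libraries for Ptgs1, Ptges and Ptgis, while Ptgs2 is highest in MFP and LN-derived CD44low cells.

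The constitutive cyclooxygenase Ptgs1 (ENSMUSG00000047250.13, chr2:36230426-36252272) had a different pattern. Its level was 237 and 189 TPM in lung-derived CD44low cells and 0.27 and 0.52 TPM in lung-derived CD44high cells. The 10 libraries of MFP, LN and BM lay between 2.16 and 13.2 TPM, with a median of 7.225 TPM. Within that range MFP had 2.16 and 4.95, LN-derived CD44low cells 13.2 and 3.83, and LN-derived CD44high cells 7.20 and 7.90 TPM. BM-derived CD44low cells had 7.25 and 9.44, and BM-derived CD44high cells 5.66 and 7.66 TPM. The 4 LN and BM groups overlapped one another, and the MFP libraries overlapped those of LN-derived CD44low cells and lay below those of the other 3 groups. Both lung-derived groups lay outside these 10 libraries, one above and one below.

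Compared to MFP, Ptgs1 was higher by 5.61 in lung-derived CD44low cells (SE 0.48, adjusted p = 9.02e-06) and fell by 1.64 in lung-derived CD44high cells (SE 0.48, adjusted p = 0.0230). The second call was lost without MFP replicate 2 (-1.19, adjusted p = 0.164), without lung CD44high replicate 1 (-1.51, adjusted p = 0.112) or without its replicate 2 (-1.77, adjusted p = 0.0608). It was also lost in a fit of only these groups (adjusted p = 0.0627). In the LN and BM groups the differences from MFP were 0.81 to 1.10, none of them called. Without LN CD44low replicate 2 the Ptgs1 difference was called in LN-derived CD44low (adjusted p = 0.0284) and BM-derived CD44low cells (adjusted p = 0.0385), and without LN CD44low replicate 1 in BM-derived CD44low cells (adjusted p = 0.0391). The direct comparison of lung-derived CD44high with CD44low cells gave -7.26 (SE 0.48, adjusted p = 1.99e-06).

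Per unit of length, Ptgs2 was the more abundant cyclooxygenase in every bulk library but those of lung-derived CD44low cells. Ptgs1 made up 75.1% and 61.7% of the summed TPM of both genes there, and 0.802% to 23.1% in the other 12 libraries. Within the latter range the share was 1.58% to 10.6% in the 4 LN libraries and 16.6% to 23.1% in the 4 BM libraries, which did not overlap. The sum of both was 315.5 and 306 TPM in lung-derived CD44low cells, beside 269 and 203 TPM in MFP and 26.4 and 23.45 TPM in lung-derived CD44high cells. The single-cell libraries did not show this order: of the counts of both genes, Ptgs1 made up 16.8% in lungL (Wilson 95% interval 15.8% to 17.9%), 38.8% in lungH (35.9% to 41.8%) and 0.525% in lymphH (0.359% to 0.769%). In bulk the share was 1.02% and 2.22% in lung-derived CD44high cells, the group of lungH. Single-cell counts are not scaled for gene length, so the levels of the shares are not those of TPM, whereas their order among groups differed between the assays.

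**Figure D2:**
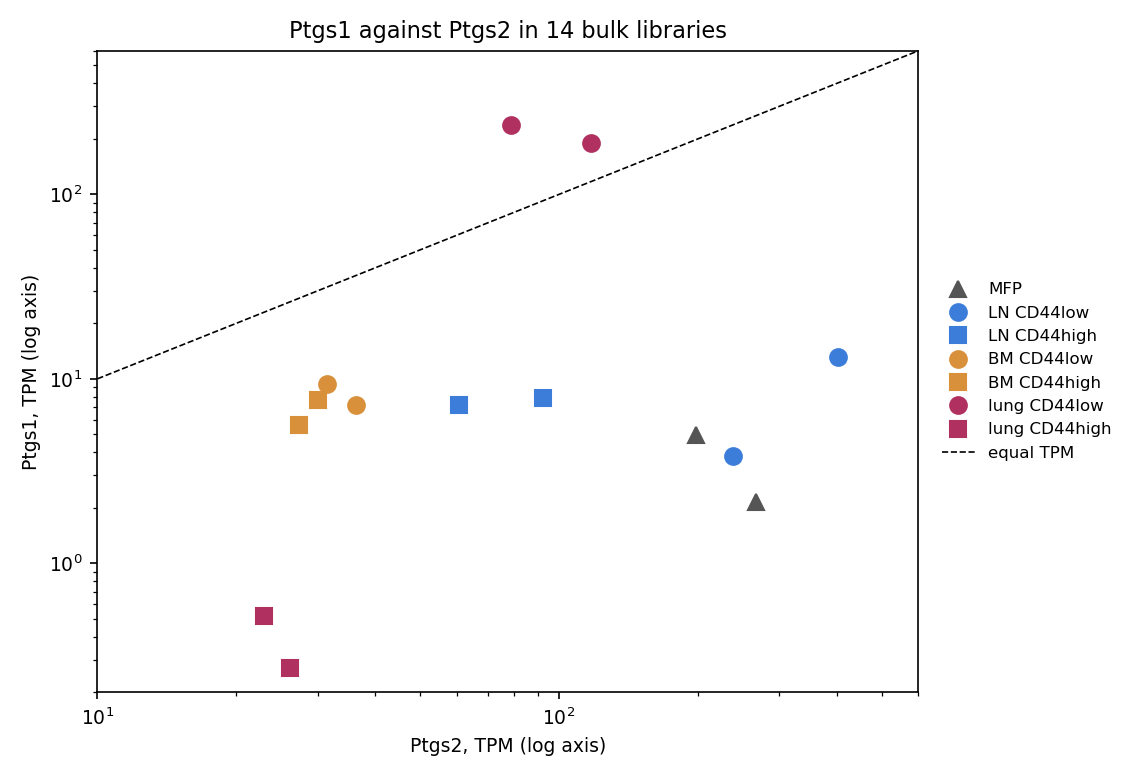
Ptgs1 (vertical axis) against Ptgs2 (horizontal axis) in TPM, both on log axes, with 1 point for each of the 14 libraries and a dashed line at equal levels. Only the 2 libraries of lung-derived CD44low cells lie above the line, and the 2 of lung-derived CD44high cells lie lowest on both axes.

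Ptges, the microsomal prostaglandin E synthase that is coupled to Ptgs2 in many cell types (ENSMUSG00000050737.13, chr2:30889471-30929863), was at 22.8 and 17.8 TPM in lung-derived CD44low cells. In the other 12 libraries it lay between 0.03 and 1.96 TPM, so it was low in the MFP and LN-derived CD44low libraries where Ptgs2 was highest. The difference between lung-derived CD44low cells and MFP was 3.70 (SE 0.46, adjusted p = 0.000127). In the other 5 groups Ptges did not pass the test against MFP, with differences from -0.33 to 0.42.

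Ptges2, a second membrane-bound enzyme with prostaglandin E synthase activity (ENSMUSG00000026820.5, chr2:32395896-32405772), was at 21.6 and 24.3 TPM in lung-derived CD44low cells. BM-derived CD44low cells had 3.01 and 39.6 TPM, and the other 10 libraries lay between 1.04 and 4.92 TPM. The second BM CD44low library therefore stood apart from its pair by more than the lung-derived CD44low cells stood from MFP. Ptges2 was called in lung-derived CD44low cells against MFP (2.43, SE 0.84, adjusted p = 0.0386), and this call was lost in 9 of the 14 fits that left out 1 library. Those fits left out either MFP, LN CD44high, BM CD44high or lung CD44low library or the second LN CD44low library, and adjusted p over all 14 ran from 0.000516, without BM CD44low replicate 2, to 0.150. In BM-derived CD44low cells the difference from MFP was 1.52 (adjusted p = 0.231). It was 3.19 (adjusted p = 0.000933) without replicate 1 and -0.15 (adjusted p = 0.872) without replicate 2, fits in which the group is a single library and the spread comes from the other groups.

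The prostacyclin synthase Ptgis (ENSMUSG00000017969.13, chr2:167191805-167240604) was at 19.7 and 15.9 TPM in lung-derived CD44low cells. It was listed at 0 in both MFP and both lung-derived CD44high libraries and did not exceed 0.31 TPM in the 8 LN and BM libraries. Only the lung-derived CD44low libraries reached 1 TPM, and no fold change is given against a group listed at 0. Without either lung CD44low library the gene no longer passed the filter. Its gene body overlaps Gm14291 and 1110018N20Rik on the opposite strand, and the libraries carried no strand information.

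Among the receptors, Ptger4 (ENSMUSG00000039942.15, chr15:5206661-5244187), which raises cyclic AMP, was the only one tested. Its level was 2.79 TPM in each MFP library, 1.52 and 1.97 TPM in lung-derived CD44low and 0.51 and 0.78 TPM in lung-derived CD44high cells. All 8 LN and BM libraries lay at or below 0.25 TPM. These are low levels, and the gene overlaps Ttc33 on the opposite strand. Against MFP, Ptger4 fell by 1.74 in LN-derived CD44low cells (adjusted p = 0.000134), by 1.65 in LN-derived CD44high cells (adjusted p = 0.000161), by 1.72 in BM-derived CD44low cells (adjusted p = 0.000119) and by 1.82 in BM-derived CD44high cells (adjusted p = 7.75e-05). In lung-derived CD44high cells it fell by 1.21 (adjusted p = 0.000577). The difference in lung-derived CD44low cells, -0.47, was not called (adjusted p = 0.0550), except without BM CD44low replicate 1 (adjusted p = 0.0491).

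The other receptors were near 0. Ptger1, which acts through calcium, did not exceed 0.91 TPM except at 2.80 TPM in lung CD44high replicate 1, beside 0.12 TPM in replicate 2. Ptger2, the other receptor that raises cyclic AMP, did not exceed 0.05 TPM and was listed at 0 in 11 libraries. Ptger3, which lowers cyclic AMP, did not exceed 0.06 TPM and was listed at 0 in 12. Hpgd, the enzyme that begins prostaglandin breakdown, was listed at 0 in 13 libraries and at 0.04 TPM in 1 lung-derived CD44low library. With the depth of each library unknown, values this low cannot be told from 0.

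The members called against the same MFP libraries are listed here group by group, beside the share of all genes, which also differed between groups. Of the 6 tested members, 1 was called in LN-derived CD44low cells (Ptger4, lower), where 9.51% of all genes tested were lower. Both LN-derived CD44high and BM-derived CD44low cells had Ptgs2 and Ptger4 lower, beside 17.9% and 13.8% of all genes. Ptgs2 and Ptger4 were also lower in BM-derived CD44high cells, where 18.6% of all genes were lower and 8.38% higher. In lung-derived CD44low cells Ptgs1, Ptges and Ptges2 were higher and Ptgs2 lower, and Ptgis was high as the filter required, where 21.9% of all genes were higher and 23.1% lower. In lung-derived CD44high cells Ptgs1, Ptgs2 and Ptger4 were lower, beside 21.2% of all genes. These shares are given as background.

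**Figure D3:**
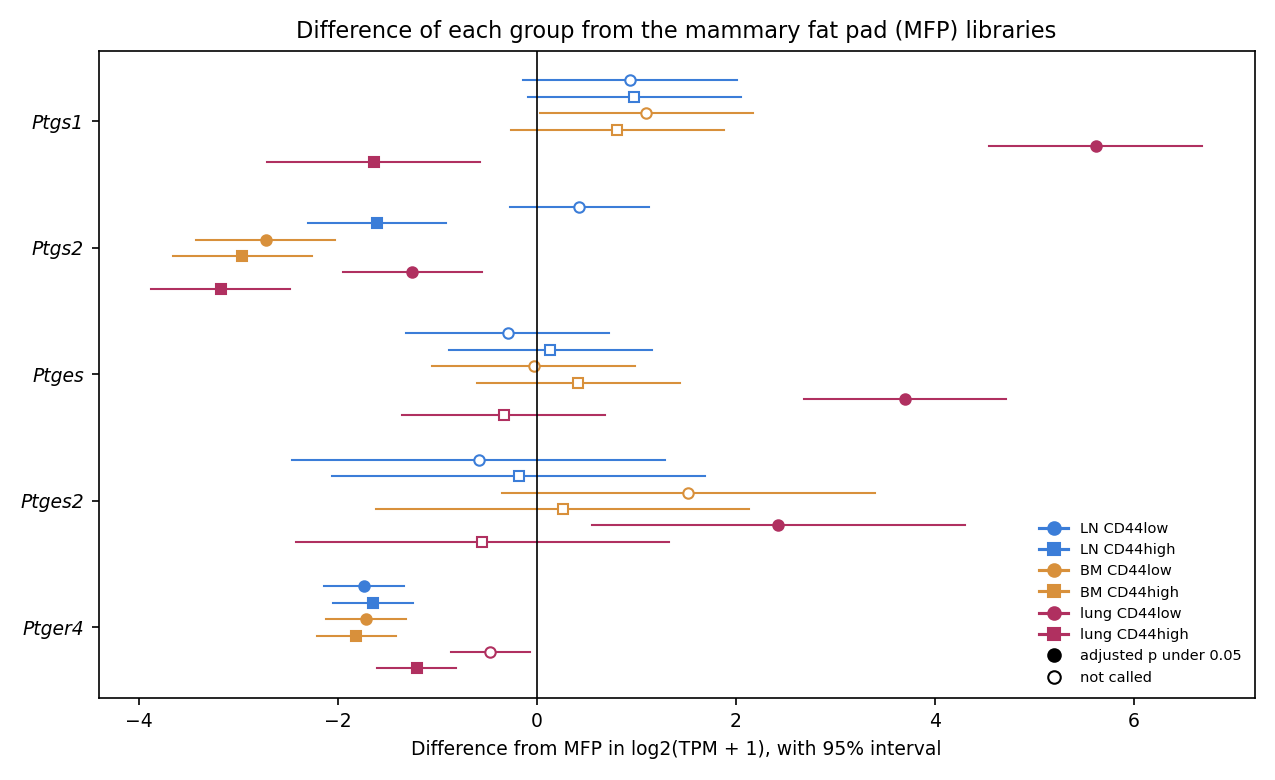
Difference of each organ-derived group from MFP in log2(TPM + 1) (horizontal axis) for the 5 tested genes other than Ptgis, with 95% intervals from limma. Circles are CD44low and squares CD44high groups, and filled symbols have an adjusted p under 0.05. Ptgs2 and Ptger4 lie left of 0 in most groups, and Ptgs1, Ptges and Ptges2 lie right of 0 with filled symbols in lung-derived CD44low cells.

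In those same lung-derived CD44low libraries, where Ptgs1, Ptges and Ptgis were highest, 9 of 10 fibroblast markers reached 1 TPM and Fap was listed at 0. Of these, Col1a2, Col3a1, Lum and Thy1 passed the filter through these libraries alone, so no count of calls is given. Leaving out Cldn7, which passed through MFP alone, 8 of 8 tested epithelial markers were lower than in MFP, where 23.1% of all genes were lower. Dcn, a fibroblast matrix protein, was at 4091 and 4315 TPM there and at 166 and 78.9 TPM in lung-derived CD44high cells. The summed level of 8 basal or myoepithelial markers was 694 and 742.5 TPM in lung-derived CD44low cells, and 594 and 656 TPM in MFP, from different genes. Acta2, smooth muscle actin, gave 657 and 711 TPM of the former and was at most 0.06 TPM in MFP, whereas the keratin Krt14 was at 594 and 655 TPM in MFP and listed at 0 in lung-derived CD44low cells. Mast cell and endothelial markers, which would mark other sources of prostanoid enzymes, summed to at most 0.06 and 0.23 TPM in these libraries, and macrophage markers to 49.3 and 45.8 TPM, with Adgre1, Fcgr1 and Tyrobp listed at 0. The part of the fibroblast and smooth muscle genes in the cyclooxygenase and synthase levels was not tested.

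The comparison of CD44high with CD44low cells asks whether the sorted fractions of an organ differ. In the LN, Ptgs2 was lower in CD44high cells (log2 fold change -2.03, SE 0.31, adjusted p = 0.0321) and was the only member called, where 0.189% of all genes were lower. This call was lost in 7 of 14 fits that left out 1 library, which were those without LN CD44low replicate 1 or without either LN, BM or lung CD44high library. In these 14 fits the difference lay between -2.41 and -1.66 and adjusted p between 0.0154 and 0.254. It was also lost in a fit of the LN groups alone (adjusted p = 0.457). The LN-derived CD44high libraries, at 60.6 and 92.3 TPM, did not overlap the CD44low libraries, and Cd44 mRNA was lower in them too.

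In the BM, no member was called between CD44high and CD44low cells by limma, where 0.15% of all genes were called. An unadjusted p under 0.05 was found for 0 members, beside 7.4% of all genes. Ptges2 was called there without BM CD44low replicate 1 (adjusted p = 0.00314). The difference for Ptgs2 was -0.23 with a 95% interval from -0.93 to 0.46. In the lung, Ptgis was listed at 0 in CD44high cells and each of the other 5 tested members was lower there than in CD44low cells, where 18.5% of all genes were lower. Besides Ptgs1, these were Ptges (-4.03, SE 0.46, adjusted p = 0.000106), Ptgs2 (-1.93, SE 0.31, adjusted p = 0.00119), Ptges2 (-2.97, SE 0.84, adjusted p = 0.0234) and Ptger4 (-0.74, SE 0.18, adjusted p = 0.0115). The Ptges2 call was lost without either lung CD44low library (adjusted p = 0.0943 and 0.106) or lung CD44high replicate 2 (adjusted p = 0.136). Likewise, the Ptger4 call was lost without either lung CD44low library (adjusted p = 0.0527 and 0.133) or lung CD44high replicate 1 (adjusted p = 0.0759), with a pseudocount of 0.1 (adjusted p = 0.104) or in a fit of only these groups (adjusted p = 0.0511).

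Whether the CD44 difference itself differed between organs was tested as an interaction. For Ptgs1 the CD44 difference in the lung was more negative than that in the LN (-7.30, SE 0.68, adjusted p = 4.54e-05) and than that in the BM (-6.97, SE 0.68, adjusted p = 6.46e-05). For Ptges the interaction was -4.46 against the LN and -4.48 against the BM (adjusted p = 0.000928 and 0.000941). Ptgs2 behaved otherwise: its CD44 difference in the lung lay within 0.10 of that in the LN (95% interval from -0.88 to 1.09) and differed from that in the BM (-1.70, adjusted p = 0.0281). The latter was called in 8 of 14 fits without 1 library and lost without BM CD44low replicate 2, either BM or lung CD44high library, or lung CD44low replicate 2, with adjusted p up to 0.130. Ptger4 was called against the LN (-0.83, adjusted p = 0.0447) in 3 of 14 such fits, those without BM CD44low replicate 1, BM CD44low replicate 2 or lung CD44high replicate 2, and not with a pseudocount of 0.1 (adjusted p = 0.165), the replicate block (adjusted p = 0.0621) or no filter (adjusted p = 0.0828). Leaving out Ptgis, 3 of 5 tested members were more negative in each interaction, beside 10.6% of all genes against the LN and 8.86% against the BM.

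Across the 3 organs together, with organ as a term, no gene of the 15348 was called between the 6 CD44high and 6 CD44low libraries by limma, 0% of all genes, and 3017 had an unadjusted p under 0.05. The difference for Ptgs2 was -1.40 (unadjusted p = 0.000801, adjusted p = 0.233), and that for Ptgs1 -2.50 (unadjusted p = 0.0369, adjusted p = 0.250). These were the members with an unadjusted p under 0.05, 2 of 6. The CD44high group mean of Ptgs2 was the lower one in each of the 3 organs, but in the BM the difference turned to 0.039 when libraries were divided by their median ratio.

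Taking both lung-derived groups together against the 8 LN and BM libraries, 35.9% of all genes were higher and 24% lower. Ptgs1 (1.03, adjusted p = 0.0122), Ptges (1.63, adjusted p = 0.000682) and Ptger4 (0.89, adjusted p = 7.61e-05) were higher in the lung. For Ptgs1 and Ptges this average joined the group with the highest mean level of the series and that with the lowest, so the averages were higher only through lung-derived CD44low cells. The Ptgs1 difference was not called without lung CD44low replicate 1 (0.95, adjusted p = 0.0522) or with a pseudocount of 0.1 (0.43, adjusted p = 0.316). Ptger4 was higher in both lung-derived groups than in any LN or BM library. Ptgs2 was lower (-0.50, adjusted p = 0.0456) but was called in 4 of 14 fits without 1 library, those without LN CD44low replicate 2, LN CD44high replicate 1, BM CD44low replicate 2 or lung CD44low replicate 2. Dividing each library by its median ratio to the others moved the median of all genes by 0.15 to 0.37 in the LN and BM groups against MFP and by -0.21 in the lung against LN and BM, and no member called was lost under it.

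The other genes of the pathway were taken from 7 lists with 79 genes, of which 50 were tested, and the 3 with the widest range of group means are named for each list. Of the genes that release or hold back arachidonate, 6 of 17 were tested. Pla2g4a, the cytosolic phospholipase that frees arachidonate, was at 122 and 157 TPM in LN-derived CD44low and 128 and 118 TPM in LN-derived CD44high cells, while MFP had 53.7 and 34.6 TPM. Both LN groups were called higher (1.66, adjusted p = 0.00628, and 1.49, adjusted p = 0.00781). In lung-derived CD44high cells Pla2g4a was lowest, at 9.59 and 11.7 TPM, 1.93 below MFP (-1.93, adjusted p = 0.00106), while Acsl4, which returns arachidonate to membrane lipids, was highest there at 139 and 178 TPM. Acsl4 was at 4.09 and 4.72 TPM in BM-derived CD44high cells, 3.41 below MFP (-3.41, adjusted p = 0.00559). Mgll, a lipase that can supply arachidonate, did not exceed 2.92 TPM.

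Of the other prostanoid synthases, 6 of 8 were tested. Ptgds, a prostaglandin D synthase, lay at 9.20 to 20.4 TPM in LN-derived CD44high and both BM-derived groups, where it was called higher than in MFP (3.25, 3.87 and 3.70, adjusted p = 0.00347, 0.00122 and 0.00147). It was at 0.68 and 6.11 TPM in LN-derived CD44low cells and did not exceed 0.74 TPM in MFP and the lung. Fam213b, a prostamide and prostaglandin F synthase, was at 22.3 and 13.8 TPM in lung-derived CD44low cells and at most 1.20 TPM elsewhere. Akr1c18, an aldo-keto reductase, was at 6.12 and 9.58 TPM in the same cells, at 2.02 and 0.68 TPM in MFP and listed at 0 in all LN and BM libraries. Neither Fam213b nor Akr1c18 would have passed the filter without lung-derived CD44low cells, so no test of them is given.

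Of 6 genes listed as other prostanoid receptors, 1 was tested: Ptgfrn, a partner of the prostaglandin F receptor and not itself a prostanoid receptor. It was at 4.70 and 4.19 TPM in MFP and fell by 1.13 to 1.49 on the log2 scale in the 5 groups called. All 6 genes of transport and breakdown were tested. Slco2a1, the prostaglandin transporter, was at 207 and 110 TPM in MFP, 10.3 to 49.3 TPM in LN, BM and lung-derived CD44high libraries and 0.83 and 1.64 TPM in lung-derived CD44low cells. It was called lower than MFP in all 6 groups, with differences from -6.11 in lung-derived CD44low to -2.56 in LN-derived CD44low cells. Cbr3, a carbonyl reductase, was at 45.1 and 37.4 TPM in lung-derived CD44low cells and at most 0.11 TPM in MFP (5.32, adjusted p = 3.01e-06). Ptgr1, which reduces prostaglandin metabolites, was lowest in lung-derived CD44high cells at 1.19 and 2.86 TPM (-2.89, adjusted p = 0.000189). Of these 6 genes, 1 rose and 2 fell in lung-derived CD44low cells against MFP, near the 21.9% and 23.1% of all genes. In LN-derived CD44high cells 1 rose and 4 fell, beside 5.87% and 17.9% of all genes.

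The competing lipoxygenase and leukotriene branch had 5 of 14 genes tested. Alox5ap, which presents arachidonate to 5-lipoxygenase, was listed at 0 in MFP and between 1.21 and 8.44 TPM in all 8 libraries of LN and BM, the libraries through which it passed the filter. Ltc4s, the leukotriene C4 synthase, was at 5.72 and 3.17 TPM in MFP, through which it passed, and at most 0.56 TPM elsewhere. Ephx2, the soluble epoxide hydrolase, was at 25.6 and 27.4 TPM in lung-derived CD44low cells and at most 0.94 TPM elsewhere, so it too passed the filter only through the cells in which it was high, and no test is given.

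Genes that respond to cyclic AMP, the messenger of Ptger2 and Ptger4, moved in different directions. Areg, an EGF receptor ligand, was at 297 and 127 TPM in MFP and at most 0.21 TPM in the lung libraries, and LN-derived CD44low cells had 224 and 86.3 TPM. Its difference from MFP was -7.36 in lung-derived CD44low (adjusted p = 1.76e-06) and -7.54 in lung-derived CD44high cells (adjusted p = 2.99e-06). Nr4a1, an immediate early nuclear receptor, was at 1.23 and 0.40 TPM in MFP and at 18.6 and 48.7 TPM in lung-derived CD44low cells (4.14, adjusted p = 0.000210). Fos, an immediate early transcription factor, was at 125 and 195 TPM in MFP. LN-derived CD44low cells had 19.2 and 32.3 TPM, and lung-derived CD44high cells 556 and 262 TPM. Of the 11 tested, 5 rose and 3 fell in lung-derived CD44low cells against MFP, beside 21.9% and 23.1% of all genes. In BM-derived CD44high cells 1 rose and 5 fell, beside 8.38% and 18.6%.

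Of the genes listed for cytokine signaling that induces Ptgs2, 15 of 16 were tested, and the list also holds inhibitors of that signaling such as Il1rn. Cebpd, a C/EBP transcription factor, was at 259 and 199 TPM in lung-derived CD44low cells and at 1.18 and 0.44 TPM in MFP (7.01, SE 0.78, adjusted p = 6.30e-05). Its relative Cebpb was at 99.9 and 544.5 TPM beside 3.04 and 3.65 TPM (5.76, SE 0.81, adjusted p = 0.000308), so its lung CD44low libraries were far apart. Both genes were also higher in BM CD44low replicate 2, at 30.9 and 20.8 TPM, than in replicate 1, at 2.91 and 3.38 TPM. Ptgs2 was lower in lung-derived CD44low cells than in MFP. Il1rn, the interleukin 1 receptor antagonist, was at 43.1 and 23.6 TPM in LN-derived CD44high and 3.37 and 2.07 TPM in LN-derived CD44low cells (3.17, adjusted p = 0.0424), opposite in direction to Ptgs2 in that comparison. Its level was highest in BM-derived CD44high cells, at 111 and 59.4 TPM, and it was listed at 0 in both libraries of lung-derived CD44high cells.

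**Figure D4:**
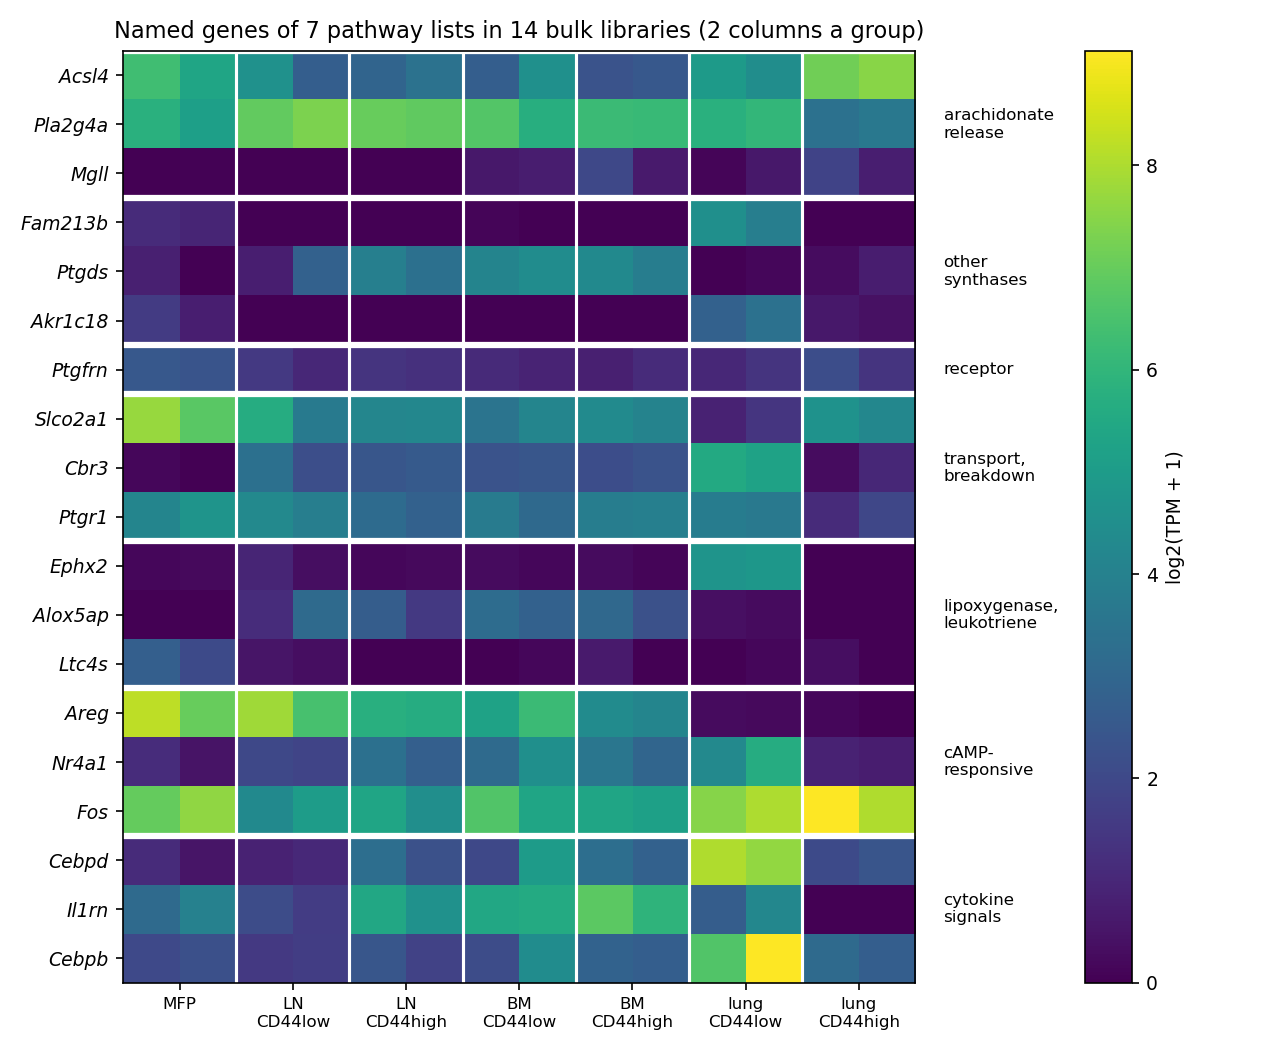
Levels of the named pathway genes (rows, grouped by list) in the 14 bulk libraries (columns, 2 for each group) as log2(TPM + 1), from 0 in dark to the highest level in yellow. Fam213b, Akr1c18, Cbr3, Ephx2 and Cebpd are brightest in lung-derived CD44low cells, and Slco2a1, Ltc4s and Areg are brightest in MFP.

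The genes whose log2(TPM + 1) followed a member most closely over the 14 libraries, which share their groups, were found by Pearson's r. Ptgs2 was followed by Dgcr6, Pvr and Tex261 (r = 0.92, 0.87 and 0.86), and Ptgs1 by Zfp575, Gstm2 and Plcb4 (r = 0.96, 0.96 and 0.95). Those of Ptges were Mfap2, Htra3 and Klf15 (each r = 0.97), and those of Ptgis were Plcxd1, Serping1 and Lum (r = 0.997, 0.996 and 0.996), values fixed by the lung-derived CD44low libraries, through which alone Ptgis and Lum passed the filter. Ptges2, with its high value in BM CD44low replicate 2, was followed by Sik1, Znrf1 and Grasp (each r = 0.97).

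In the single-cell libraries, counts were summed over the kept cells, those in which over 250 genes were detected and under 10% of counts were mitochondrial, and given per 10000, with exact Poisson 95% intervals that cover counting error only. The kept cells numbered 348 of 2808 barcodes in lungL, 1236 of 3623 in lungH and 2562 of 3297 in lymphH, with medians of 4011, 557 and 585 counts per cell. Cells carry running numbers in place of barcodes, so shared barcodes could not be counted. With 1 library each, a difference compares these libraries and not the conditions. Doublets were not sought or removed. LungL cells had 965 counts of Col1a1 and none of Epcam or Cdh1, lungH cells 3 of Epcam and none of Cdh1, and lymphH cells 936 of Epcam. The 10 epithelial markers together were at 1.62 per 10000 in lungL, 4.37 in lungH and 10.7 in lymphH, and in lungH nearly all of it was Krt8 (369 counts) and Krt18 (573 counts). Bulk lung-derived CD44high cells, at 15.99 and 87.65 TPM beside 4840 and 4531 TPM in LN-derived CD44high cells, stood much further below the LN. The 8 cycling markers were at 14.8 per 10000 in lungH and 15.6 in lymphH, whereas the matching bulk groups had 4.34 and 68.4 TPM and 4480 and 4616 TPM. LungH and the bulk libraries of the same label thus differed in markers as well.

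Ptgs2 was at 18.2 counts per 10000 in lungL (95% interval 17.7 to 18.8), 2.83 in lungH (2.61 to 3.06) and 9.31 in lymphH (9.05 to 9.57). The order was that of the mean levels of the matching bulk groups, with lung-derived CD44high cells lowest. Ptgs1 was at 3.69 in lungL (3.44 to 3.95), 1.80 in lungH (1.62 to 1.98) and 0.0492 in lymphH (0.0321 to 0.0721). LungH held 397 counts of Ptgs1 in 146 cells, whereas the bulk libraries of lung-derived CD44high cells had 0.27 and 0.52 TPM and those of LN-derived CD44high cells, the group of lymphH, 7.20 and 7.90 TPM. For Ptgs1 the order of lung-derived and LN-derived CD44high cells was thus opposite in the 2 assays, and the part of the marker differences between lungH and the bulk libraries was not tested.

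The synthases Ptges and Ptgis were found almost wholly in lungL. Ptges had 81 counts there, 0.365 per 10000 (0.290 to 0.453), 0 in lungH, where 3 counts would be 0.0136 per 10000, and 2 in lymphH. Ptgis had 88 counts in lungL, 0.396 per 10000 (0.318 to 0.488), and 0 in lungH and lymphH, where 3 counts would be 0.0136 and 0.00567. Ptges2 was at 0.495, 0.421 and 0.545 per 10000 in lungL, lungH and lymphH, with overlapping intervals, and so did not show the difference between lung-derived groups seen in bulk. Ptger4 had 22, 9 and 2 counts in lungL, lungH and lymphH, and Ptger1 had 19, 7 and 27. Ptger2 had 1 count in lungL, and Ptger3 and Hpgd had none in any library.

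A Ptgs1 count was found in 48.0% of lungL, 11.8% of lungH and 0.937% of lymphH cells, at unequal depths, and no cell type known to lack the gene was at hand to give a background share. Within lungL, 153 of the 167 cells with a Ptgs1 count also had a Ptgs2 count, which was found in 73.3% of all kept lungL cells. These 167 cells had a median of 10887 counts, well above the 4011 of all kept cells, and the part of depth in this joint count was not tested. In lungH, 56 of the 146 cells with a Ptgs1 count had a Ptgs2 count, which was found in 16.7% of all kept lungH cells. These 146 cells had a median of 5778 counts, and the 207 cells with a Ptgs2 count had a median of 796. LungL cells also held the counts of the pathway genes that were high in bulk lung-derived CD44low cells, with 45 of Ephx2 and 37 of Fam213b beside none of either in lungH and lymphH. Cebpb did not follow the bulk order: it was at 2.84 per 10000 in lungL and 4.64 in lungH, whereas Cebpd was at 2.23 and 1.23.

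**Figure D5:**
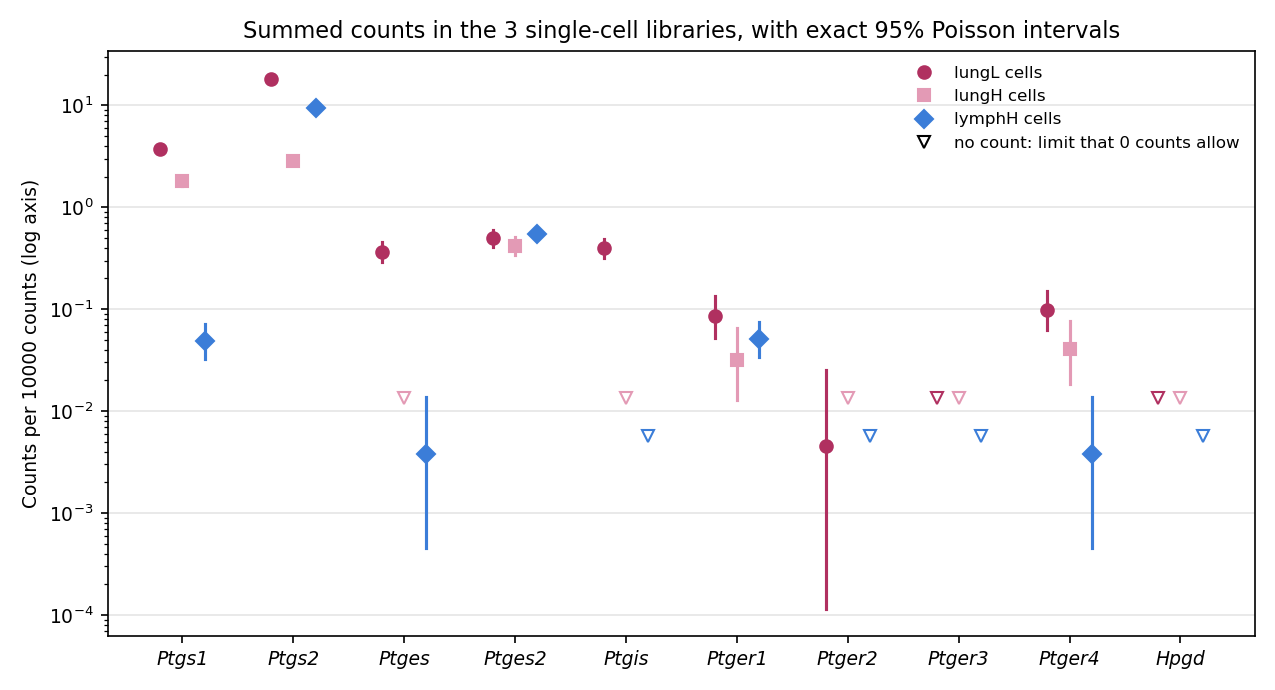
Summed counts per 10000 (vertical log axis) of the 10 genes in lungL, lungH and lymphH cells, with exact 95% Poisson intervals, and open triangles at the level of 3 counts where a gene had 0. Ptgs2 has the highest level in lungL and lymphH, Ptges and Ptgis have counts mainly in lungL, and Ptger3 and Hpgd have none.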

How the data were processed

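RNA-seq of 14 bulk and 3 single-cell libraries was analysed from the processed tables. The authors aligned bulk reads with STAR to mm10 and quantified them with RSEM, named in the submitters' processing notes, on GENCODE v21, and deposited TPM values. The bulk cDNA was made with a modified SMART-seq2 protocol, which does not mark strand, and depth per library is unknown beyond a stated minimum, so counting error could not be computed. Between 11508 and 13052 genes a library had at least 1 TPM. For single cells the authors used kallisto and deposited whole-number counts per gene and cell. Whether molecular identifiers were collapsed is not given in the sources used here, so intervals cover counting error only. The number of unused sample columns was 0.

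Symbols came from the row names of the lungH matrix and positions from GENCODE vM21 on mm10, which held the deposited identifiers. A gene was kept where 2 or more libraries reached 1 TPM. Group means of log2(TPM + 1) were fitted for the 7 groups in R 4.3.3 by limma 3.58.1, using lmFit followed by eBayes with an intensity trend, which left 7 residual degrees of freedom. Two-sided p-values were adjusted by the Benjamini-Hochberg method across the tested genes, separately for each comparison, and called below 0.05. The comparison across organs used the 12 organ-derived libraries with organ as a term. The procedure was tested on simulated data. Single-cell counts were summed over kept cells of each library, with floors of 3 counts for a count of 0. Motifs were searched with Python 3.11.15, and tables and figures were made with numpy 2.4.6, scipy 1.17.1, pandas 2.3.3 and matplotlib 3.10.9.

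The members and lists were chosen with earlier results of these data known. All 10 members are given in every comparison that calls them, together with the 3 tested genes of each list with the widest range of group means and, for members that reached 10 TPM, the 3 genes of highest Pearson's r. Alternatives were a pseudocount of 0.1, no filter, a filter of 5 TPM, median-ratio scaling, the replicate number as a block, only the groups compared, a further limit of 2 on the absolute log2 fold change, the unadjusted p, and each library left out. For single cells they were more than 500 genes, mitochondrial limits of 20% or none, all barcodes, and an average taken over cells.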

Additional observations from a re-analysis of the deposited data

Results flagged for a closer look

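For 4 members the CD44high minus CD44low difference of log2(TPM + 1) in the lung was more negative than in another organ, by a limma interaction test. For Ptgs1 it was -7.26 in the lung, 0.044 in the LN and -0.29 in the BM, and the interaction was -7.30 against the LN and -6.97 against the BM. For Ptges the interaction was -4.46 against the LN and -4.48 against the BM, where CD44high cells differed from CD44low cells by 0.43 and 0.45. Ptger4 had an interaction of -0.83 against the LN, at levels of 2 TPM or less, and it was lost in 11 of 14 fits without 1 library. Ptgs2 had one of -1.70 against the BM only, and the difference of its 2 interactions was not tested.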

How the results depend on the processing

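No called member changed direction under any alternative. Counts are over all 6 tested members, so Ptgis, whose calls the filter set, is in them unless said otherwise. Except for the unadjusted p, no share of all genes is given for the alternatives. A change in these counts therefore cannot be set against one in all genes. With the fold limit of 2 added, the members called were 0 in LN-derived CD44low and 0 in LN-derived CD44high cells, 1 in BM-derived CD44low, 1 in BM-derived CD44high and 1 in lung-derived CD44high cells against MFP, and 0 for the lung against LN and BM. With the filter of 5 TPM, which removed Ptger4, they were 0 in LN-derived CD44low cells and 1 in each of LN-derived CD44high, BM-derived CD44low and BM-derived CD44high cells. For LN-derived CD44high against CD44low cells, the replicate block and the fit of only the groups compared each gave 0. By unadjusted p, 2 members passed across organs, beside 19.7% of all genes. Uncalled Ptgs2 differences turned under median-ratio scaling, to 0.039 between the BM groups and to -0.092 for the interaction of lung and LN.

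Without 1 library at a time, the count ranged from 1 to 2 in LN-derived CD44low, 2 to 6 in lung-derived CD44low, 0 to 1 between LN and 0 to 1 between BM groups, 3 to 6 between lung groups, 2 to 6 for the lung against LN and BM, 1 to 2 for BM against LN, and 2 to 5 and 2 to 4 for the interactions with LN and BM. The value of 2 in lung-derived CD44low cells came without its replicate 1, where Ptgis no longer passed the filter. Without Ptgis the ranges were 2 to 5 in lung-derived CD44low cells, 3 to 5 between lung groups, 2 to 5 for the lung against LN and BM, and 2 to 4 and 2 to 3 for the interactions, and the others did not change. Where a group is left with 1 library, it is assumed to vary like the other groups. A pseudocount of 0.1 lost the calls of Ptgs1 for the lung against LN and BM and of Ptger4 between lung groups and for the interaction with the LN. Leaving out a BM CD44low library added calls of Ptges2 in 6 comparisons. The uncalled Ptgs2 interaction with the LN ranged from -0.27 to 0.48, and Ptges2 in BM-derived CD44low cells against MFP from -0.15 to 3.19.

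Same-numbered libraries of different groups deviated from their group means with correlations of -0.19 to 0.17 over 21 pairs of groups, 3 of them over 0.1. Weak correlations cannot settle whether libraries of the same number share a mouse, and the main fit used no pairing. With the replicate block, leaving out Ptgis, 3 of 4 members called remained in lung-derived CD44low cells against MFP, where Ptges2 was lost (adjusted p = 0.0519). The block also lost Ptgs2 between LN groups and for the lung against LN and BM, and Ptger4 for the interaction with the LN. The fit of only the groups compared lost Ptgs1 in lung-derived CD44high cells against MFP, Ptger4 between lung groups and Ptgs2 for the lung against LN and BM. No filter on low TPM lost Ptges2 in lung-derived CD44low cells, Ptgs2 for the lung against LN and BM, and Ptger4 for the interaction with the LN. In the comparison across organs the fit of only the groups compared is the fit reported. Single-cell levels moved beyond their Poisson interval in 9 of 150 cases, Ptgs2 in lymphH reaching 10.3 per 10000 as a mean of per-cell values. Low values of Ptger4 and of the untested members are limited by the unknown depth.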

Other observations

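Ptgs2os2, a non-coding neighbour of Ptgs2 that does not overlap it, lay between 3.95 and 8.86 TPM in all 8 libraries of LN and BM, and at most 0.37 TPM in MFP and lung libraries. In the single-cell libraries it had 240 counts in lymphH, 19 in lungL and 5 in lungH. The other neighbour, Ptgs2os, was at 3.59 and 4.16 TPM in lung-derived CD44low cells and at most 2.12 TPM in the other 12 libraries. Both genes were chosen after their values were seen.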
